A study of Homo sapiens with 12 samples.

Results

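The FOS, JUN and EGR immediate early genes are 10 transcription factor genes of 3 families, FOS, FOSB, FOSL1 and FOSL2, JUN, JUNB and JUND, and EGR1, EGR2 and EGR3. They were taken by symbol from a table of 26475 genes, in which each of the 10 has 1 row. The families were chosen by measured values of these same libraries, the large decreases of FOSB, FOS and EGR1 in SK-OV-3 cells given BAY-850, and the value of FOS in PA-1 cells was known as well. The treatment contrast in SK-OV-3 cells, the difference between the lines in the effect of treatment, and FOS in PA-1 cells are therefore given for these genes as descriptions without a test. So are FOSB, FOS and EGR1 between the untreated lines, a comparison that shares the SK-OV-3 DMSO libraries.

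Immediate early genes are switched on within minutes of a growth factor, stress or adhesion signal, without new protein synthesis, and their mRNAs are short-lived. FOS and JUN proteins are basic leucine zipper (bZIP) factors that pair with each other to form AP-1, which binds TGACTCA and related sites. EGR proteins are zinc finger factors that bind GC-rich sites such as GCGTGGGCG, and ERK signalling through serum response factor (SRF) and its ETS-family partners is a known route to EGR1 and FOS.

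The study asked how ATAD2, a bromodomain-containing chromatin regulator of the AAA+ ATPase class, acts in ovarian cancer. RNA was sequenced from 2 established human ovarian cancer cell lines, PA-1, a teratocarcinoma line grown in DMEM, and SK-OV-3, an adenocarcinoma line grown in RPMI, both with fetal bovine serum. Each line was given the vehicle DMSO or 5 µM of the ATAD2 inhibitor BAY-850, and cells were harvested 48 h after the inhibitor was added. Each of the 4 groups has 3 biological replicates, 12 libraries in all, so that each group is 1 cell line at 1 dose and 1 time, with serum present throughout.

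Library totals ran from 34544505 to 51840233 counts, and 21 ribosomal RNA genes took 7.94 to 16.9% of a library. SK-OV-3 BAY-850 replicate 3 had the highest total and the fewest genes with a count (15626, against 17418 to 18403 in the others). Levels are given as CPM, counts scaled to a common library size with TMM factors over the 12 libraries. PA-1 libraries carried the embryonal markers LIN28A (mean 797 CPM) and SOX2 (231 CPM), at 0.149 and 0.106 CPM in SK-OV-3, and SK-OV-3 libraries carried KRT7 (417 against 0.101 CPM) and ERBB2 (2095 against 65.8 CPM). DPPA4 and L1TD1 were low in PA-1 libraries too, at 1.72 and 0.411 CPM, and KRT8 and KRT18 were as high in PA-1 as in SK-OV-3. The summed leukocyte markers never passed 1.22 CPM, and the drug target ATAD2 averaged 39.0 and 67.9 CPM.

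Promoter sequence is shown for 5 of the genes because their levels differ most between the groups or because they carry the SRF, CREB-type or TATA motifs that the immediate early genes are known for. RefSeq (GRCh38.p14) had a promoter window of 250 bases before and 50 after the start for 8 of the 10 genes, with 3 windows for EGR2. None was found for FOSL1 or EGR3, and those of FOSL2, JUN and JUND are not printed. Each line gives up to 130 bases before the RefSeq start, on the gene's strand, and ends earlier where the first exon of the GENCODE 29 model begins upstream. Capitals mark, on either strand, the CArG box bound by SRF, the CREB/ATF half-site TGACG, which reads as CGTCA from the other strand, and the TATA motif.
FOSB, chr19:45467866-45467994, + strand: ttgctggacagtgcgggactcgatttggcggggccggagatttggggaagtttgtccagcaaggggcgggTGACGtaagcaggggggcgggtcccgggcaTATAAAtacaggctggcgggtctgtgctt
FOS, chr14:75278698-75278773, + strand: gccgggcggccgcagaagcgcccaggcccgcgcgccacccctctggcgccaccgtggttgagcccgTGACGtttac
EGR1, chr5:138465349-138465478, + strand: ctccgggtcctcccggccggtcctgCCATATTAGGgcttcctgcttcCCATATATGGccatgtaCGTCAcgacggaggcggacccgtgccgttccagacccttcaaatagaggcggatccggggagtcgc
EGR2, chr10:62816367-62816496, - strand, the last of its 3 starts: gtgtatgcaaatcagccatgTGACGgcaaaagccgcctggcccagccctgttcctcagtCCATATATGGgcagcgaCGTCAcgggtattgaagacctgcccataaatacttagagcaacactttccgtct
JUNB, chr19:12791356-12791485, + strand: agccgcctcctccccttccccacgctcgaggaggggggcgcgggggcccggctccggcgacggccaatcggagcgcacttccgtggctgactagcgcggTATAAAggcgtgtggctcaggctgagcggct

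Within the full 300-base windows, the CArG box was found in EGR1, beginning 105 and 83 bases before the start, and in EGR2, 71 bases before that start, while 1.29% of 35116 RefSeq windows hold one. TGACG was present in at least 1 window of all 8 genes, against 24.6% of all windows, and lay 64 bases before the start in FOS, 60 in FOSB and 66 in EGR1. TATAAA lay 33, 30 and 31 bases before the start in FOS, FOSB and JUNB (11.5% of all windows). The full CREB site TGACGTCA, which contains TGACG, was found in JUND at 200 bases (1.85%), the AP-1 site TGACTCA in FOSL2, 4 bases after the start (4.95%), and the ETS core CCGGAA in FOSB at 205 bases (17.2%). The EGR site GCGTGGGCG was in no member's window and in 0.795% of all windows. These are letter matches in the reference and say nothing of binding in these cells. Sites more than 250 bases before the start, in FOS as in the other genes, lay outside the windows and were not searched.

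FOSB had the largest log2 fold change with BAY-850 of the 10 genes, in SK-OV-3. It stood between 4.09 and 5.66 CPM in the 6 PA-1 libraries, at 65.3, 64.9 and 68.5 CPM in SK-OV-3 DMSO, and at 1.89, 2.82 and 2.24 CPM in SK-OV-3 BAY-850. EGR1 was the most abundant of the 10 in reads per kilobase of exon in 3 of the 4 groups, and was exceeded in SK-OV-3 BAY-850 by JUN and FOSL1. FOSL1, FOSL2, JUN and JUND had higher mean levels in SK-OV-3 BAY-850 than in SK-OV-3 DMSO, and the 6 other genes had lower ones. All 10 passed the filter on low counts in every comparison.

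**Figure D1:**
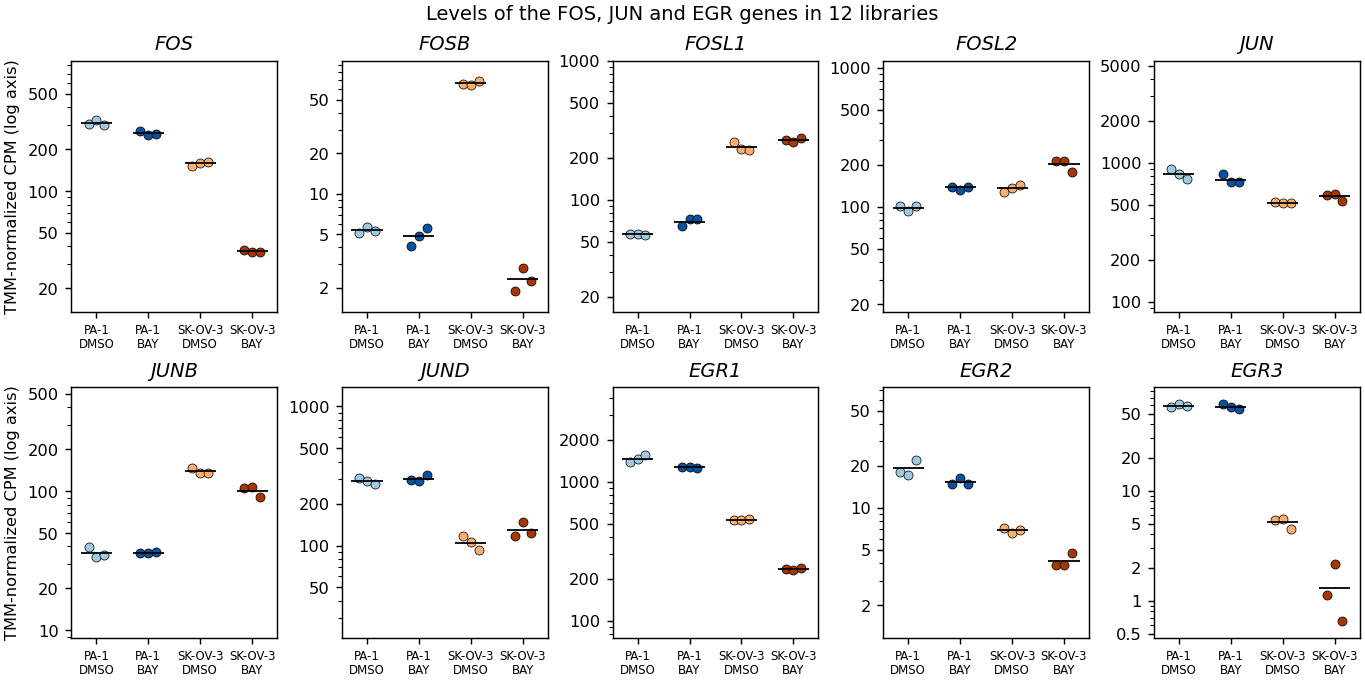
Level of each gene in the 12 libraries in TMM-normalized CPM on a log axis whose range differs between panels, with 1 point for each library and a line at each group's mean. FOSB, FOS, EGR1, EGR2 and EGR3 in SK-OV-3 BAY-850 sit below all other groups, whereas FOSL1, FOSL2 and JUN do not.

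With BAY-850 in PA-1, 4 of the 10 genes had an adjusted p under 0.05 (edgeR's quasi-likelihood fits, Benjamini and Hochberg's method over 15212 genes), beside 7.13% of all genes tested. FOSL1 and FOSL2 were higher with BAY-850 (4.65% of all genes), FOS and EGR1 were lower (2.48%), and FOS is not counted as tested. In SK-OV-3 cells, 8 of the 10 were past the same threshold, 2 higher and 6 lower, where 20.4% of 15348 genes were (10.8% higher and 9.56% lower). Nothing is read from this count because the contrast chose the families. The same holds for the side of the threshold of any single member in SK-OV-3 given below. The groups did not overlap for 5 members in PA-1 (27.4% of all genes tested) and for 9 in SK-OV-3 (38.6%). The median log2 fold change of the 10 was -0.08 in PA-1 and -0.58 in SK-OV-3, and that of all genes tested was -0.002 and -0.009. The PA-1 count rests on small changes: without PA-1 DMSO replicate 2 or PA-1 BAY-850 replicate 2 it was 1, FOSL2.

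Between the lines under DMSO, all 10 genes passed the threshold (80.3% of 16070 genes tested did) and no gene's groups overlapped (82.3%). FOSB, FOSL1, FOSL2 and JUNB were higher in SK-OV-3 (40.1% of all genes) and the other 6 were lower (40.2%), with a median of -0.83 against 0.002 over all genes. Line, growth medium and culture cannot be told apart in this comparison, and it shares the SK-OV-3 DMSO libraries with the contrast that chose the families. FOSB, FOS and EGR1, which made that choice, are in these counts but are described below without p. Since these are bulk samples, fewer cells expressing a gene and less RNA per cell cannot be told apart anywhere in these data.

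The FOS family held both the gene that was lowest after treatment relative to its control and the gene with the clearest rise in PA-1. FOSB (chromosome 19, bases 45467995 to 45475179 in GRCh38), which gives rise to the long-lived splice form ΔFosB in other settings, averaged 66.2 ± 1.96 CPM (SD, n = 3 here and below) in SK-OV-3 DMSO and 2.32 ± 0.469 CPM in SK-OV-3 BAY-850. That is 28.4-fold lower, a log2 fold change of -4.83 (SE 0.120). In PA-1 cells the means were 5.36 ± 0.280 CPM for DMSO and 4.83 ± 0.732 CPM for the inhibitor, and the groups overlapped (log2 fold change -0.15, SE 0.163, edgeR adjusted p = 0.613). Under DMSO, FOSB was 12.3-fold higher in SK-OV-3 than in PA-1 (log2 3.62, SE 0.0808). Treated SK-OV-3 cells thus held less FOSB than either PA-1 group, with a highest library of 2.82 CPM below the lowest PA-1 library of 4.09 CPM. FOSB overlaps ERCC1 on the other strand, and the splice forms of FOSB were not separated in the counts.

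FOS (chromosome 14, bases 75278774 to 75282230), the partner of JUN in classical AP-1, read 152, 160 and 163 CPM in SK-OV-3 DMSO and 37.8, 36.3 and 36.2 CPM in SK-OV-3 BAY-850. The 3 treated libraries lay within 2 CPM of each other and far below the controls, 4.29-fold lower on average (log2 -2.10, SE 0.0582). PA-1 cells held more FOS, 305, 325 and 300 CPM with DMSO and 271, 253 and 259 CPM with BAY-850. Those groups did not overlap either, and the difference was small, a log2 fold change of -0.25 (SE 0.0550). Under DMSO the level in SK-OV-3 was 1.95-fold lower than in PA-1 (log2 -0.97, SE 0.0548), so that FOS and FOSB differed between the untreated lines in opposite directions.

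FOSL1 (chromosome 11, bases 65892049 to 65900573) encodes FRA-1, a FOS-related factor often abundant in invasive carcinoma cells. It was 56.9, 56.4 and 56.1 CPM in PA-1 DMSO and 64.6, 72.2 and 72.3 CPM in PA-1 BAY-850, a rise of 1.23-fold (log2 0.30, SE 0.0632, edgeR adjusted p = 0.0109). In SK-OV-3 it was 260, 230 and 229 CPM with DMSO and 269, 262 and 279 CPM with BAY-850. The treated libraries were all above the controls, by a log2 fold change of 0.18 (SE 0.0620) that was past the threshold only in 4 of 16 alternative fits. The level in SK-OV-3 DMSO was 4.25-fold that in PA-1 DMSO (log2 2.09, SE 0.0628, edgeR adjusted p = 7.88e-12). The PA-1 difference was no longer past the threshold without PA-1 DMSO replicate 2 (log2 0.30, adjusted p = 0.0592) or PA-1 BAY-850 replicate 2 (0.28, 0.0725), with library sizes alone as the scaling (0.26, 0.0764), and after removal of each library's trend on GC content (0.21, 0.0609).

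FOSL2 (chromosome 2, bases 28392448 to 28417312), which encodes FRA-2, was the 1 gene of the 10 that was higher with BAY-850 in both lines by a log2 fold change over 0.4. Its levels were 101, 92.6 and 102 CPM in PA-1 DMSO against 140, 133 and 139 CPM in PA-1 BAY-850. That is a 1.40-fold rise (log2 0.48, SE 0.0591, edgeR adjusted p = 1.54e-04), which held in each of the 16 alternative fits. In SK-OV-3 the levels were 128, 136 and 143 CPM against 212, 214 and 179 CPM, with no overlap and a log2 fold change of 0.58 (SE 0.0686). The untreated lines differed by 1.38-fold, higher in SK-OV-3 (log2 0.46, SE 0.0626, edgeR adjusted p = 1.71e-05). An antisense transcript, FLJ31356, overlaps FOSL2, and the strand setting of the counting is not given in the sources used here.

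Levels of different genes can be compared only per length of exon, and on that scale the makeup of the FOS family differed between the groups. FOS was 68.2% ± 1.22 of the family's summed CPM per kilobase in PA-1 DMSO and 58.6% ± 1.73 in PA-1 BAY-850. FOSL1 was the leading member in SK-OV-3, with 61.4% ± 2.54 under DMSO and 78.2% ± 1.76 under BAY-850. In those cells FOS went from 23.7% ± 1.54 to 6.20% ± 0.141, FOSB from 5.77% ± 0.281 to 0.228% ± 0.0488, and FOSL2 from 9.18% ± 0.747 to 15.4% ± 1.63. The summed level of the family changed less, from 207 ± 6.69 to 183 ± 2.12 CPM per kilobase in SK-OV-3 and from 140 ± 3.40 to 138 ± 1.42 in PA-1. With the length of the longest transcript in place of all exons, FOSL1 made up 56.3% of the family in SK-OV-3 DMSO and 77.2% in SK-OV-3 BAY-850.

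**Figure D2:**
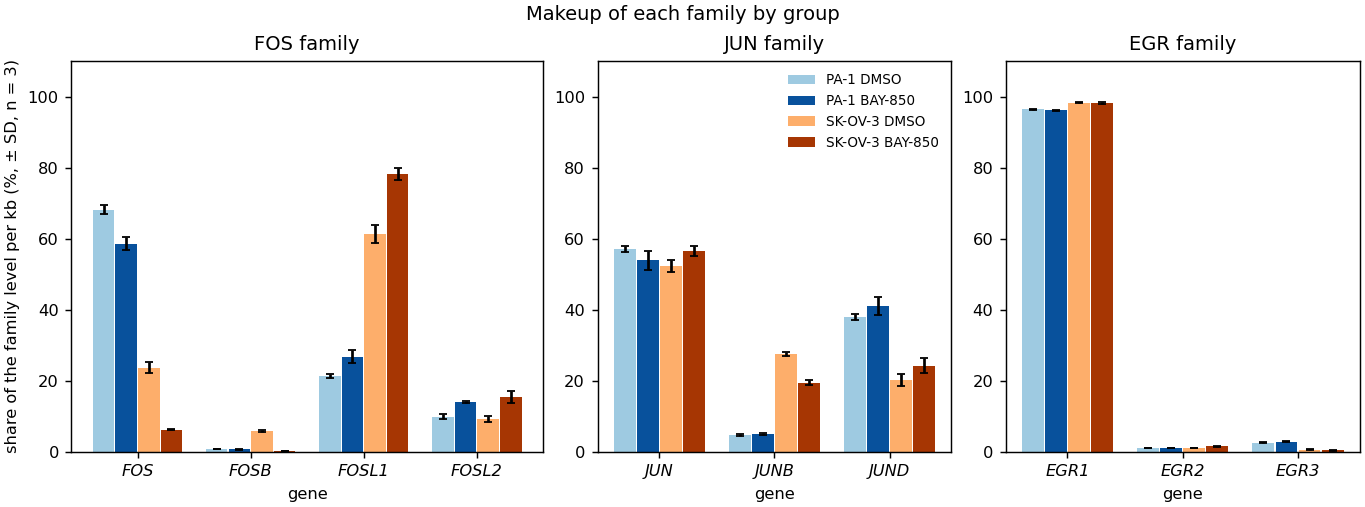
Share of each gene in the summed level of its family, in percent of CPM per kilobase of exon, for the 4 groups (bars, mean of 3 libraries, with SD). FOSL1 is the largest FOS-family share in both SK-OV-3 groups and FOS in both PA-1 groups, and EGR1 is over 96% of the EGR family in every group.

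The JUN family encodes the obligate partners of FOS proteins in AP-1, and its log2 fold changes with BAY-850 lay between -0.45 and 0.30 in both lines. JUN itself (chromosome 1, bases 58780788 to 58784327) was 901, 827 and 760 CPM in PA-1 DMSO and 827, 725 and 723 CPM in PA-1 BAY-850. These groups overlapped (log2 fold change -0.13, SE 0.0680, edgeR adjusted p = 0.258). SK-OV-3 cells held 520, 511 and 514 CPM with DMSO and 591, 600 and 530 CPM with BAY-850, or 0.16 on the log2 scale (SE 0.0476), opposite in sign to the 6 decreases. Its place past the threshold in SK-OV-3 was lost in 7 of the 16 alternative fits, 4 of which left out 1 library. Under DMSO, JUN was 1.61-fold lower in SK-OV-3 than in PA-1 (log2 -0.68, SE 0.0614, edgeR adjusted p = 3.53e-07).

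JUNB (chromosome 19, bases 12791496 to 12793315), which can act against JUN at shared sites, was the only JUN-family gene with a lower mean in SK-OV-3 BAY-850. Its libraries gave 147, 134 and 136 CPM with DMSO and 105, 107 and 90.9 CPM with BAY-850, or -0.45 on the log2 scale (SE 0.0659). In PA-1, 39.6, 33.5 and 34.8 CPM stood against 36.0, 36.2 and 36.4 CPM, and no difference was detectable (log2 0.01, SE 0.0739, edgeR adjusted p = 0.967). Untreated SK-OV-3 cells held 3.87-fold more JUNB than untreated PA-1 cells (log2 1.95, SE 0.0736, edgeR adjusted p = 6.94e-11). HOOK2 overlaps JUNB on the other strand.

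JUND (chromosome 19, bases 18279760 to 18281622), the family member that most cells keep on without stimulation, was 304, 292 and 275 CPM in PA-1 DMSO and 295, 292 and 323 CPM in PA-1 BAY-850 (log2 0.06, SE 0.0600, edgeR adjusted p = 0.584). SK-OV-3 gave 118, 106 and 92.5 CPM with DMSO and 117, 148 and 123 CPM with BAY-850, with overlap between the groups and a log2 fold change of 0.30 (SE 0.0984) that was not past the threshold, though it was in 7 of 16 alternative fits. Under DMSO, JUND was 2.75-fold lower in SK-OV-3 than in PA-1 (log2 -1.46, SE 0.0800, edgeR adjusted p = 2.68e-09). Its exons are richer in G and C than those of 99.5% of genes tested in PA-1, and JUNB's than those of 96.1%. Across genes, the PA-1 log2 fold changes rose with GC content (Spearman's rho 0.364 over 14322 genes, which are not independent), and after removal of that trend JUND and JUNB in PA-1 were at -0.09 and -0.11.

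Per kilobase, the JUN family summed to 410 ± 29.2 CPM in PA-1 DMSO, 397 ± 15.1 in PA-1 BAY-850, 278 ± 11.0 in SK-OV-3 DMSO and 287 ± 20.9 in SK-OV-3 BAY-850. JUN made up between 52.3% and 57.1% of it in every group. JUND came next in PA-1, at 38.0% ± 0.819 under DMSO. JUNB came next in untreated SK-OV-3, at 27.4% ± 0.573, and JUND in treated SK-OV-3, at 24.2% ± 2.12 against 19.4% ± 0.709 for JUNB.

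Of the EGR family, EGR1 (chromosome 5, bases 138465490 to 138469315), the ERK-responsive zinc finger factor, was 531, 531 and 539 CPM in SK-OV-3 DMSO and 235, 231 and 240 CPM in SK-OV-3 BAY-850. The treated level was 2.26-fold lower, and the replicates spread by under 10 CPM in either group (log2 -1.17, SE 0.0465). PA-1 libraries held 1389, 1455 and 1559 CPM with DMSO and 1269, 1280 and 1260 CPM with BAY-850. That difference of -0.21 on the log2 scale (SE 0.0519, edgeR adjusted p = 0.0251) was in the same direction, without overlap. It was no longer past the threshold without PA-1 DMSO replicate 2 (adjusted p = 0.106) or 3 (0.0823), or without PA-1 BAY-850 replicate 1 (0.0537) or 2 (0.100). Untreated SK-OV-3 cells held 2.75-fold less EGR1 than untreated PA-1 cells (log2 -1.46, SE 0.0533).

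EGR2 (chromosome 10), whose product is best known from Schwann cell myelination and T cell anergy, was far lower, at 18.2, 17.3 and 22.1 CPM in PA-1 DMSO and 14.8, 16.3 and 14.9 CPM in PA-1 BAY-850. The groups did not overlap, and the log2 fold change of -0.32 (SE 0.106) was not past the threshold (edgeR adjusted p = 0.0799), though it was with DESeq2's Wald test (0.0455) and without a filter on low counts (0.0470). In SK-OV-3, 7.19, 6.55 and 6.93 CPM with DMSO stood above 3.89, 3.87 and 4.73 CPM with BAY-850, or -0.72 on the log2 scale (SE 0.175), a place past the threshold that was lost in 3 of 16 alternative fits. Under DMSO the level was 2.77-fold lower in SK-OV-3 (log2 -1.47, SE 0.127, edgeR adjusted p = 2.42e-07).

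EGR3 (chromosome 8), a close relative that other EGR proteins can induce, showed the largest difference between the untreated lines after FOSB, in the opposite direction. It was 57.1, 61.0 and 58.7 CPM in PA-1 DMSO and 5.38, 5.57 and 4.51 CPM in SK-OV-3 DMSO, 11.4-fold lower (log2 -3.51, SE 0.0941, edgeR adjusted p = 2.68e-12). BAY-850 left PA-1 libraries at 61.5, 57.6 and 55.3 CPM (log2 -0.02, SE 0.0628, edgeR adjusted p = 0.877). The treated SK-OV-3 libraries were at 1.13, 2.16 and 0.652 CPM, from 46, 91 and 35 counts, a log2 fold change of -1.98 (SE 0.373) that ranged from -2.53 to -1.65 when 1 library was left out.

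EGR1 made up at least 96.2% of the family's CPM per kilobase in every group, so that the family's sum followed it, from 485 ± 28.0 to 421 ± 3.61 CPM per kilobase in PA-1 and from 173 ± 1.29 to 76.4 ± 1.37 in SK-OV-3. In order of level per kilobase, untreated PA-1 cells ran EGR1 (468), JUN (234), JUND (156), FOS (95.7), FOSL1 (29.9), JUNB (19.8), FOSL2 (13.8), EGR3 (12.1), EGR2 (5.20) and FOSB (0.966), with no overlap between neighbours. Untreated SK-OV-3 cells ran EGR1 (170), JUN (146), FOSL1 (127), JUNB (76.2), JUND (56.6), FOS (48.9), FOSL2 (18.9), FOSB (11.9), EGR2 (1.87) and EGR3 (1.06), where JUND and FOS overlapped. With BAY-850 the SK-OV-3 order began with JUN (162) and FOSL1 (143) and then EGR1 (75.0) and JUND (69.4), which overlapped, and it ended with FOSB (0.417) and EGR3 (0.271), which overlapped too. In PA-1 the order of the 10 genes was the same under both treatments on this length. With the longest transcript as the length, JUNB stood above FOSL2 in PA-1 DMSO (19.8 against 14.7) and below it in PA-1 BAY-850 (19.9 against 20.5), and FOS above JUND in SK-OV-3 DMSO (73.4 against 56.6).

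The effect of BAY-850 was larger in SK-OV-3 than in PA-1 for the genes that were lower with it. The SK-OV-3 log2 fold change minus that in PA-1 was -4.68 for FOSB, -1.99 for EGR3, -1.86 for FOS, -0.97 for EGR1, -0.47 for JUNB and -0.41 for EGR2. The other 4 genes lay between -0.13 for FOSL1 and 0.28 for JUN. Of the 10, 5 were past the threshold on all 12 libraries, each more negative in SK-OV-3, where 14.5% of 16830 genes were past it (6.70% more positive and 7.77% more negative), and this too is a description. In the treated SK-OV-3 libraries, the summed epithelial marker list (KRT7, KRT8, KRT18, KRT19, EPCAM, ERBB2 and CDH1) stood at 2895 to 3358 CPM against 4122 to 4407 CPM under DMSO. ERBB2, the most abundant of them, went from 2406 to 1784 CPM, and KRT8, KRT19 and EPCAM were also past the threshold. KRT7, KRT18 and CDH1 were not (edgeR adjusted p = 0.109, 0.0663 and 0.826). The part of this shift in the results was not tested.

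**Figure D3:**
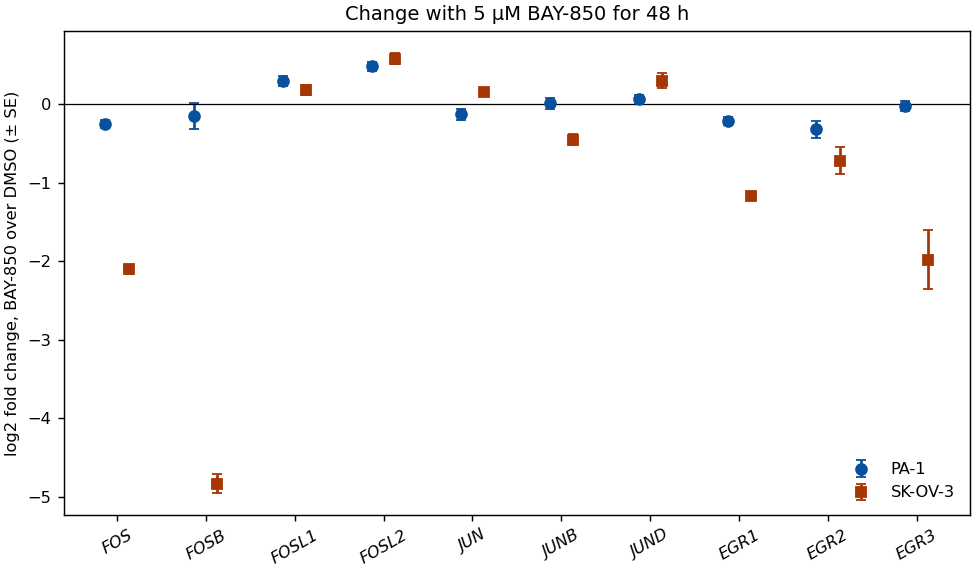
Log2 fold change of BAY-850 over DMSO for each gene in PA-1 (circles) and SK-OV-3 (squares), with the standard error of the fit as bars and 3 libraries in each group. FOSB, FOS, EGR3 and EGR1 lie at or below -1.17 in SK-OV-3 and at or above -0.25 in PA-1, and FOSL2 lies above 0 in both lines.

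Around these genes, 8 lists of the pathway were counted, 115 genes in all, some on more than 1 list, with 114 of them in the table. In PA-1, 15 of 108 tested were past the threshold (13.9%, 7 higher and 8 lower), and in SK-OV-3, 40 of 110 (36.4%, 24 higher and 16 lower), beside 7.13% and 20.4% of all genes. The lists were drawn up with some of these genes' results known, and adjusted p-values are edgeR's over all genes tested. Genes were named by their calls within a line. A test of the difference between the lines on the same libraries is therefore partly fixed by the naming.

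Of the upstream kinases, the MAP kinases of the ERK, JNK and p38 routes and their activators, most did not pass in either line. In SK-OV-3, 2 of 21 did: RPS6KA2, an ERK-activated S6 kinase, rose from 6.45 to 11.5 CPM (log2 0.84, SE 0.161, adjusted p = 0.00375) and RPS6KA4 fell from 84.2 to 63.1 CPM (log2 -0.41, adjusted p = 0.00284). In PA-1, 3 rose, RPS6KA4 (log2 0.31), MAP2K1 (0.30) and RPS6KA1 (0.27), and MAPK10 fell (-0.27), calls that were lost in 7, 1, 7 and 5 of 16 alternative fits. RPS6KA4 encodes MSK2, a kinase of CREB and histone H3, and its effect differed between the lines by -0.73 on the log2 scale (edgeR adjusted p of the difference = 4.58e-04). In the list of SRF and its ETS-family and MRTF partners, 1 of 11 genes passed in SK-OV-3, ETV5 (log2 0.40, SE 0.0683, adjusted p = 0.00185), and 0 of 12 did in PA-1 with edgeR (3 at an unadjusted p under 0.05, 1 with DESeq2 and 0 with limma-voom). At an unadjusted edgeR p under 0.05 in SK-OV-3, 7 kinases were higher and 1 lower, and 4 genes of the SRF list higher and 1 lower. DESeq2 called 3 kinases higher and 1 lower, and 2 and 1 of the SRF list. With limma-voom these were 1 and 1, and 1 and 0. The medians of these lists in SK-OV-3 were 0.05 and 0.13, and that of all genes was -0.009.

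Of the bZIP partners that can replace FOS or JUN in a dimer, 9 of 15 rose in SK-OV-3, where 10.8% of all genes rose, with a median log2 fold change of 0.30. With edgeR 0 of them fell, while 1 did at an unadjusted p under 0.05, 1 with DESeq2 and 1 with limma-voom. JDP2, a JUN-binding repressor, rose from 26.3 ± 2.46 to 41.1 ± 3.47 CPM (log2 0.65, SE 0.0923, adjusted p = 5.65e-04). MAFK, a small MAF protein, rose from 47.2 to 65.6 CPM (log2 0.48, adjusted p = 0.00334), and ATF4, the effector of the integrated stress response, from 405 ± 14.9 to 552 ± 11.8 CPM (log2 0.45, adjusted p = 8.07e-05). In PA-1, 1 of 16 rose, NFE2L1 (log2 0.22), and 2 fell, CREB5 (-0.28) and NFE2L2 (-0.25), calls lost in 9, 2 and 3 of 16 alternative fits. Of 16 bZIP partners tested for the difference between the lines, 7 passed the threshold, all more positive in SK-OV-3, beside 14.5% of all genes. They included CREB5, NFE2L2, JDP2 and ATF4, at 0.69, 0.53, 0.73 and 0.62 on the log2 scale. These genes were named for changes within a line, so their passing is partly fixed by the naming.

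Other immediate early transcription factors moved in both directions. In SK-OV-3, 3 of 13 fell, NR4A2 (3.22 to 1.41 CPM, log2 -1.19, SE 0.340, adjusted p = 0.0296), the Krüppel-like factor KLF2 (9.79 to 6.23 CPM, log2 -0.65) and IER2 (194 to 162 CPM, log2 -0.26). The NR4A2 call was lost in 5 of 16 alternative fits, and its log2 fold change ran from -1.51 to -0.97 when 1 library was left out. MAFF and KLF4 rose there, by 0.44 and 0.23. CSRNP1 was the only one of 14 past the threshold in PA-1, from 88.0 to 105 CPM (log2 0.25, adjusted p = 0.0133), a call lost in 4 of 16 alternative fits. The list's median in SK-OV-3 was -0.11.

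Immediate early genes with other products split as well, 7 up and 5 down of 21 in SK-OV-3. The largest decreases were of the kinase gene SGK1, 161 ± 5.79 to 44.1 ± 1.44 CPM (log2 -1.87, SE 0.0563, adjusted p = 6.11e-09), and of 2 matricellular genes that are also YAP targets, CTGF, 193 to 64.7 CPM (log2 -1.57), and CYR61, 836 to 397 CPM (log2 -1.07). DUSP1 (-0.35) and PLK2 (-0.21), named because the count is small, were the other decreases. The NF-kB inhibitor NFKBIA rose from 46.9 to 83.2 CPM (log2 0.84, adjusted p = 2.84e-05), GADD45B by 0.60 and BTG1 by 0.51. In PA-1, ZFP36L2 rose (log2 0.37, adjusted p = 0.00383), and PLK2 (-0.37), BTG1 (-0.23), GEM (-0.21) and PPP1R15A (-0.20, outside the naming rule) fell. The calls of BTG1 and GEM in PA-1 were lost in 7 and 9 of 16 alternative fits. BTG1 was thus lower in treated PA-1 and higher in treated SK-OV-3, a difference of 0.73 (edgeR adjusted p = 1.34e-05).

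Genes known elsewhere as AP-1 targets showed 5 decreases and 2 increases among 19 tested in SK-OV-3, with a median of -0.10. The cytokine IL11 fell from 40.7 ± 5.61 to 18.6 ± 0.991 CPM (log2 -1.12, SE 0.106, adjusted p = 2.88e-05) and the stromelysin MMP10 from 31.9 to 19.7 CPM (log2 -0.69). HBEGF (-0.37) and PLAU (-0.19), outside the naming rule, also fell. HMGA1, a chromatin architectural protein, rose from 732 to 1484 CPM (log2 1.03, SE 0.0454, adjusted p = 8.32e-08), and MMP1, a classical AP-1 target, from 498 to 566 CPM (log2 0.19, adjusted p = 0.0255, a call lost in 5 of 16 alternative fits). In PA-1, 1 of 15 passed, ANXA1, which fell by 0.29 on the log2 scale (adjusted p = 0.00246).

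Among genes known elsewhere as EGR1 targets, 3 of 13 rose and 1 fell in SK-OV-3. THBS1, thrombospondin 1, fell from 350 ± 23.7 to 121 ± 11.6 CPM (log2 -1.53, SE 0.0710, adjusted p = 1.05e-07). ICAM1 rose from 0.976 to 4.51 CPM (log2 2.22, SE 0.350, adjusted p = 0.00111) and NAB2 from 37.8 to 54.3 CPM (log2 0.53). NAB2 and NAB1 are co-repressors that bind EGR1, and NAB1 fell from 117 to 100 CPM (log2 -0.22, adjusted p = 0.0471, a call lost in 6 of 16 alternative fits). Neither was past the threshold in PA-1 with edgeR, DESeq2 or limma-voom, although both were under an unadjusted p of 0.05. EGFR was the 1 gene of 12 past the threshold in PA-1, at 17.0 and 22.7 CPM (log2 0.41, adjusted p = 0.0198, a call lost in 6 of 16 alternative fits).

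**Figure D4:**
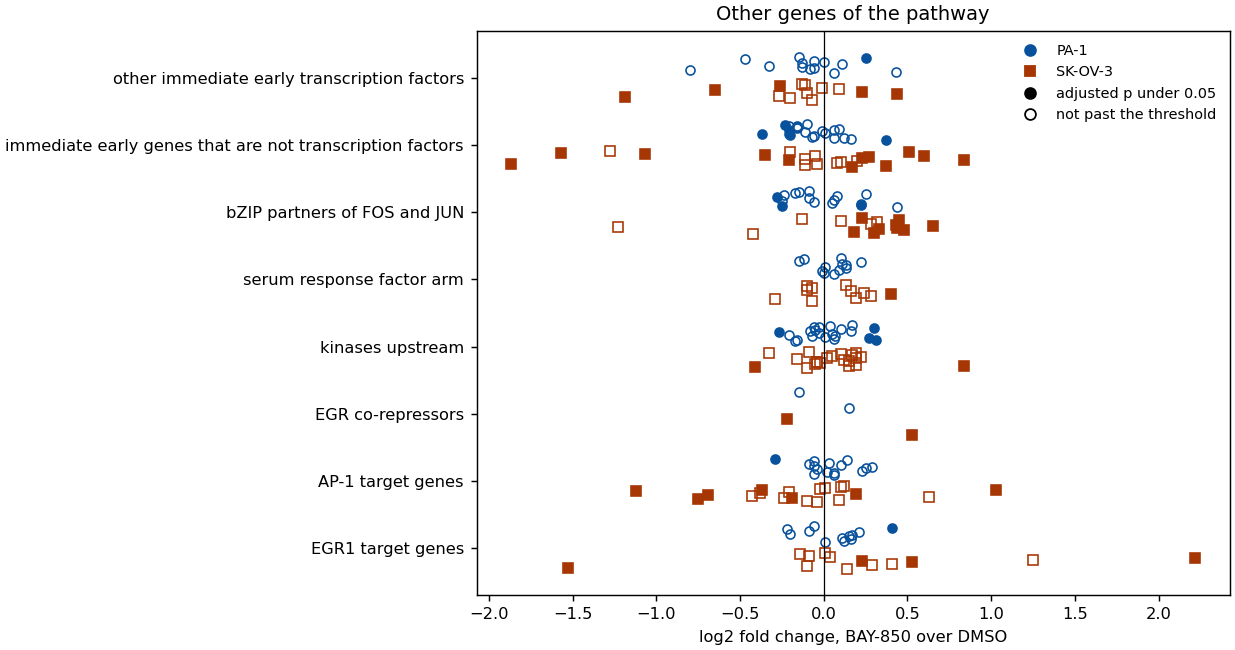
Log2 fold change of BAY-850 over DMSO for every tested gene of the 8 lists in PA-1 (circles) and SK-OV-3 (squares), filled where edgeR's adjusted p was under 0.05. Filled squares of the bZIP partners all lie above 0, while those of the other immediate early genes and of the target lists lie on both sides.

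The genes whose pattern over the 12 libraries was most like that of FOSB, FOS and EGR1 were found by the root mean square difference of log2 CPM after each gene was centred on its own mean, among 14092 genes with at least 1 CPM on average. For FOSB these were NIPAL4 (0.93), the kinase gene SGK1 (1.07), the R-spondin receptor gene LGR6 (1.09), the growth factor gene FGF1 (1.14) and the repressor gene HIC1 (1.24), whose own SK-OV-3 log2 fold changes ran from -2.61 to -1.68 against -4.83 for FOSB. For FOS they were EGR1 (0.33), AQP3 (0.35), ADGRL3 (0.37), PDE4B (0.37) and WT1 (0.37). For EGR1 they were IL11 (0.15), PDE4B (0.15), TRIB2 (0.19), ADGRL3 (0.21) and CPE (0.23). By this measure FOS was closer to EGR1 than to any gene of its own family. FOS and EGR1 both chose the families by their decreases in SK-OV-3, so their likeness is partly fixed by that choice. It is a description only. SGK1 and IL11 are the 2 genes named here that also stand on the lists above. NIPAL4, LGR6 and HIC1 averaged only 1.17, 1.99 and 1.08 CPM, close to the 1 CPM needed to enter. Like FOSB, those genes were highest in SK-OV-3 DMSO, which helped them past that filter. AQP3, PDE4B and WT1 were low as well, at 2.12, 2.07 and 2.59 CPM.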

How the data were processed

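RNA of 12 libraries was sequenced. The authors deposited expected counts per gene, made with Bowtie2 2.1.0 and RSEM 1.2.15 on hg38 per the submitters' processing notes. The annotation and strand setting are not given in the sources used here. The protocol describes oligo-dT selection, the design text ribosomal RNA depletion. Expected counts were rounded to whole numbers, which changed no value of the 10 genes, although 8.94 to 12.4% of a library's values were not whole. Tests were edgeR 4.0.16 quasi-likelihood fits (R 4.3.3, TMM, filterByExpr by group, Benjamini-Hochberg over all genes tested), within each line, between DMSO groups, and for the difference of the effects on all 12 libraries. DESeq2 1.42.0 and limma-voom (limma 3.58.1) were alternatives. Simulated data with 200 genes changed 2-fold gave 198 and 200 of them back in the PA-1 and SK-OV-3 comparisons, with 10 false calls in each. Low-count genes were not among those changed, so recovery of smaller changes or at low counts was not tested. The simulation gave all genes the same replicate variation and no trend on GC content, unlike these libraries. Its recovery and false calls therefore need not hold for them.

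The members and lists were chosen with earlier results of these data known. By rule, all 10 members, up to 3 list genes per direction and line with the largest changes past the threshold, and the 5 genes most alike to FOSB, FOS and EGR1 were named. A few genes of the lists are counted but not reported here by name. Same-numbered replicates did not deviate together (correlations from -0.0841 to 0.116), so that the numbers were not used as pairs. No 2 replicates agreed within sampling noise. Gene positions and lengths are from GENCODE 29, promoters from RefSeq.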

Additional observations from a re-analysis of the deposited data

Results flagged for a closer look

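As a description, the log2 fold change with BAY-850 in SK-OV-3 minus that in PA-1 was -1.86 for FOS, -4.68 for FOSB, -0.47 for JUNB, -0.97 for EGR1 and -1.99 for EGR3. The SK-OV-3 contrast, which makes up this difference, chose the families, so that the difference was not tested for them. Of all 16830 genes, 14.5% were past the threshold for it.

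Among the list genes picked by the naming rule, the effect differed between the lines for 25 by edgeR's test (adjusted p under 0.05). The rule picks large changes within a line on the same libraries, so this outcome is partly fixed by the choice. Of all list genes tested for the difference, 32 of 113 passed (28.3%), beside 14.5% of all genes. The difference was negative for CSRNP1 (-0.38), KLF2 (-0.76), SGK1 (-1.81), CTGF (-1.42), CYR61 (-0.92), RPS6KA4 (-0.73), IL11 (-1.07), EGFR (-0.57) and THBS1 (-1.56). It was positive for MAFF (0.49), KLF4 (0.55), BTG1 (0.73), GEM (0.47), NFKBIA (0.81), GADD45B (0.53), CREB5 (0.69), NFE2L2 (0.53), JDP2 (0.73), ATF4 (0.62), ETV5 (0.38), RPS6KA2 (0.77), NAB2 (0.37), ANXA1 (0.40), HMGA1 (0.92) and ICAM1 (2.00).

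For GEM, RPS6KA4, BTG1, CREB5 and NFE2L2 the change passed the threshold in both lines with opposite signs. The log2 fold changes were -0.21, 0.31, -0.23, -0.28 and -0.25 in PA-1 and 0.27, -0.41, 0.51, 0.43 and 0.30 in SK-OV-3. The PA-1 calls of these genes were lost in 9, 7, 7, 2 and 3 of 16 alternative fits. The libraries of the 2 lines were grown in different media, and the part of this in the differences cannot be told apart from that of the line.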

How the results depend on the processing

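The 10 genes' counts past the threshold were 4 in PA-1 (3 to 5 under the other settings, 1 to 4 when a library was left out), 8 in SK-OV-3 (7 to 10, and 6 to 9), 10 between the untreated lines (10 throughout) and 5 for the difference of effects (5 to 6 throughout). Of 680 gene-level values for the members, 629 kept their sign and side of the threshold. The 7 that changed sign were uncalled PA-1 values: JUNB at -0.03 with library sizes alone, -0.11 without the GC trend, and -0.04 and -0.01 without PA-1 DMSO replicate 2 and 3, JUND at -0.09 without the GC trend, and EGR3 at 0.0032 without PA-1 DMSO replicate 2 and 0.01 without PA-1 BAY-850 replicate 3.

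Counts over all genes depended more on the settings in PA-1, where 1085 became 466 with library sizes alone, 1674 with DESeq2, 574 without the GC trend, 683 with all 12 libraries in 1 fit, and 340 to 1228 when a library was left out. With library sizes alone, 50.4% of PA-1 calls were higher against 65.2%, and 57.9% of calls for the difference of effects against 46.3%. The list genes called in PA-1 (15) became 5 with library sizes alone, 23 with DESeq2 and 4 to 16 when a library was left out. In SK-OV-3, leaving out a library gave 1781 to 3902 genes in place of 3130, and 31 to 50 list genes in place of 40. The FOSL1 share in SK-OV-3 DMSO moved from 61.4 to 56.3% with the longest transcript as the length. With the replicate number as a block, the members' counts were 4, 7, 10 and 6, and the numbers do not pair the samples. The cause of these shifts was not tested. Over the libraries left out, PA-1 log2 fold changes ran from -0.04 to 0.08 for JUNB and from -0.06 to 0.01 for EGR3. EGR3 in treated SK-OV-3 rests on 35 to 91 counts, the fewest in replicate 3, the library with the highest total.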
